A study of Mus musculus with 6 samples.

Results

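The 6 genes Tmem131, Clic4, Xrn2, Zdhhc21, Aar2 and Usp45 were described in Melan-a cells, an immortal line of pigmented mouse melanocytes of the C57BL/6 strain, after transfection of a small interfering RNA (siRNA) against Dicer (siDicer) or a control siRNA (siScr). They were chosen by their measured falls: in an earlier analysis of the same arrays they were, Tgfbr1 aside, the named genes whose fall in siDicer passed the threshold while all siDicer arrays lay below all siScr arrays. They are 6 of the 7486 genes for which a probe set carries that symbol alone, and each had 1 such probe set. Cells of both groups were grown with fetal serum and the phorbol ester TPA, transfected with lipid and magnetic reagents, and lysed 24 hours later. Each group held 3 mouse Clariom D arrays, described as biological replicates, from cells at passages 47, 54 and 56, so each siDicer array has a siScr array of the same passage. Values are log2 signals per probe set as the authors deposited them, and a difference of 1 is a doubling of signal. Signals of different probe sets cannot be set against each other, because each has its own probes. Dicer1 was not analysed here. The labels name the siRNA, and that siDicer lowered Dicer1 is not shown here.

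Dicer cuts double-stranded RNA and the hairpin precursors of microRNAs into short duplexes. Argonaute proteins load these and use them to repress messenger RNAs, and loss of Dicer is known mainly for raising the targets of microRNAs. A transfected siRNA is itself loaded into Argonaute. Besides its intended target it can lower other transcripts that pair with it fully, or only with its seed near the 5′ end. Neither the siRNA sequences nor the use of a single siRNA or a pool is given in the sources used here. Pairing of siDicer with the 6 transcripts was therefore not tested, nor were falls that follow from loss of Dicer told apart from falls through such pairing.

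The products of the 6 genes have different roles. Tmem131 is a transmembrane protein known to bind collagen and to act in its export from the endoplasmic reticulum. Clic4 belongs to the chloride intracellular channel family, whose members exist as soluble and membrane-bound forms. Xrn2 is the nuclear exoribonuclease that degrades RNA from its 5′ end and takes part in termination of transcription. Zdhhc21 is an enzyme with the DHHC motif that attaches palmitate to cysteines of other proteins. Aar2 binds Prpf8 during assembly of the U5 small nuclear ribonucleoprotein of the spliceosome. Usp45 is a ubiquitin-specific protease known to act on the DNA repair protein Ercc1.

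Promoter sequences are shown for the genes whose promoters differed most in base composition, since the 6 genes were lower together. All 6 genes were matched by symbol to RefSeq's promoter table, build GRCm38.p6, which holds 250 bases before and 50 after each start. The 250 bases before the start are printed 5′ to 3′ on the gene's strand. In Tmem131 and Clic4 capitals mark the GC box, GGGCGG on either strand. In Aar2 they mark TATAAA, the letters of the TATA box, again sought on both strands. Letters were marked wherever they lay, without regard to their distance from the start, so the marks in Aar2 do not show a working TATA box. Tmem131 lies on the minus strand (chr1:36939528-36939777), Clic4 on the minus strand (chr4:135272761-135273010) and Aar2 on the plus strand (chr2:156547326-156547575).
Tmem131: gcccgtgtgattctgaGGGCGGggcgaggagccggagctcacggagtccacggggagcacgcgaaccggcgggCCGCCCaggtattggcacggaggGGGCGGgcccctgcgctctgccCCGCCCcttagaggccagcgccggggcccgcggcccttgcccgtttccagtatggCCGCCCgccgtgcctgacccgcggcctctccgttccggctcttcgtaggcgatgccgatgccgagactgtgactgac
Clic4: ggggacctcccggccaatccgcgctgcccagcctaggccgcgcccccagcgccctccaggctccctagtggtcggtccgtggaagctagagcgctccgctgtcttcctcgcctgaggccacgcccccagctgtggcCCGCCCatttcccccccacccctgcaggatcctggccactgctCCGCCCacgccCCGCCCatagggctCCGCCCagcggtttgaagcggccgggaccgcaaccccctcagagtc
Aar2: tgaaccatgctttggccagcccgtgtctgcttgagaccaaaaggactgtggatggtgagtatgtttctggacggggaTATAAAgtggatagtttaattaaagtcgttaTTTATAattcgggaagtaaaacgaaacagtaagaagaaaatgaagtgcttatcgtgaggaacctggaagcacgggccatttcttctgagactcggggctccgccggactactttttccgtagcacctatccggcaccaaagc

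The promoters did not share a base composition. Over the window of 300 bases, G and C made up 73.7% in Tmem131, 73.3% in Clic4, 67.7% in Zdhhc21, 66.7% in Usp45, 62.0% in Xrn2 and 49.3% in Aar2. The median over 21263 windows of protein-coding genes was 56.3%, with quartiles of 48.3% and 64.7%. Aar2 was thus the only window of the 6 below that median. Of the 8 motifs searched, the GC box GGGCGG was found in 4 of the 6 windows and in 46.2% of all, with 5 copies in Tmem131, 4 in Clic4, 3 in Usp45 and 1 in Zdhhc21. CCAAT was found in Tmem131, Clic4 and Zdhhc21, and in 38.2% of all windows. TATAAA was found only in Aar2, with 2 copies, against 12.6% of all windows. Xrn2 alone of the 6 held CCGGAAG (a core of ETS factor sites; 11.6% of all) and the E-box CACGTG (7.84% of all). None of the 6 windows held ATGGCGGC (YY1, 3.02% of all), TGACGTCA (cAMP response element, 2.23%) or TCATGTG (core of the M-box of pigment genes, 2.99%). Motifs were searched on both strands and may overlap. These matches describe letters in the windows and are no evidence of binding.

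Tmem131 had the largest fall of the 6. Its siScr signals were 9.55, 9.55 and 9.59 at passages 47, 54 and 56, and its siDicer signals 8.55, 8.74 and 8.64. The control arrays lay within 0.04 of each other, and every siDicer array lay at least 0.80 below all of them. The within-passage differences were -1.00, -0.80 and -0.95, which is a fall by 0.92 on the log2 scale with a standard error of 0.07, or 1.89-fold. Counted from the lowest difference of all 16383 probe sets, Tmem131 ranked 3 at passages 47 and 56 and 4 at passage 54.

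Clic4, the chloride intracellular channel protein, had siScr signals of 9.50, 9.56 and 9.65 and siDicer signals of 8.87, 8.96 and 8.94. Both groups were tight and 0.54 apart at their nearest arrays. The differences by passage were -0.63, -0.59 and -0.71, and the mean was 1.56-fold lower (log2 change -0.65, standard error 0.07).

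Xrn2, the nuclear exoribonuclease, had siScr signals of 8.74, 8.97 and 8.93 and siDicer signals of 8.15, 8.34 and 8.35. The passage 47 array was the lowest of each group, while the differences by passage were nearly equal at -0.60, -0.63 and -0.57. Their SD was 0.03, against an SD of 0.12 among arrays within either group. The mean was 1.52-fold lower (log2 change -0.60, standard error 0.09, or 0.05 in the paired fit).

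Zdhhc21, the palmitoyltransferase, had siScr signals of 7.92, 7.99 and 8.07 and siDicer signals of 7.29, 7.38 and 7.50. Passage 47 was again the lowest array of each group and passage 56 the highest. The differences were -0.63, -0.61 and -0.56, with an SD of 0.03. The mean was 1.52-fold lower (log2 change -0.60, standard error 0.08, or 0.05 in the paired fit).

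Aar2, the assembly factor for the U5 ribonucleoprotein, had siScr signals of 7.77, 7.75 and 7.78, which lay close together, and siDicer signals of 7.36, 7.15 and 7.19. The siDicer array of passage 47 stood above the other two. The difference there was -0.42, against -0.60 and -0.59 at passages 54 and 56. The mean was 1.45-fold lower (log2 change -0.54, standard error 0.07).

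Usp45, the ubiquitin-specific protease, had siScr signals of 6.87, 6.81 and 6.84 and siDicer signals of 6.31, 6.38 and 6.40. In contrast to Aar2, its difference was largest at passage 47, at -0.56, with -0.43 and -0.44 at passages 54 and 56. The mean was 1.39-fold lower (log2 change -0.48, standard error 0.06), the smallest fall of the 6.

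**Figure D1:**
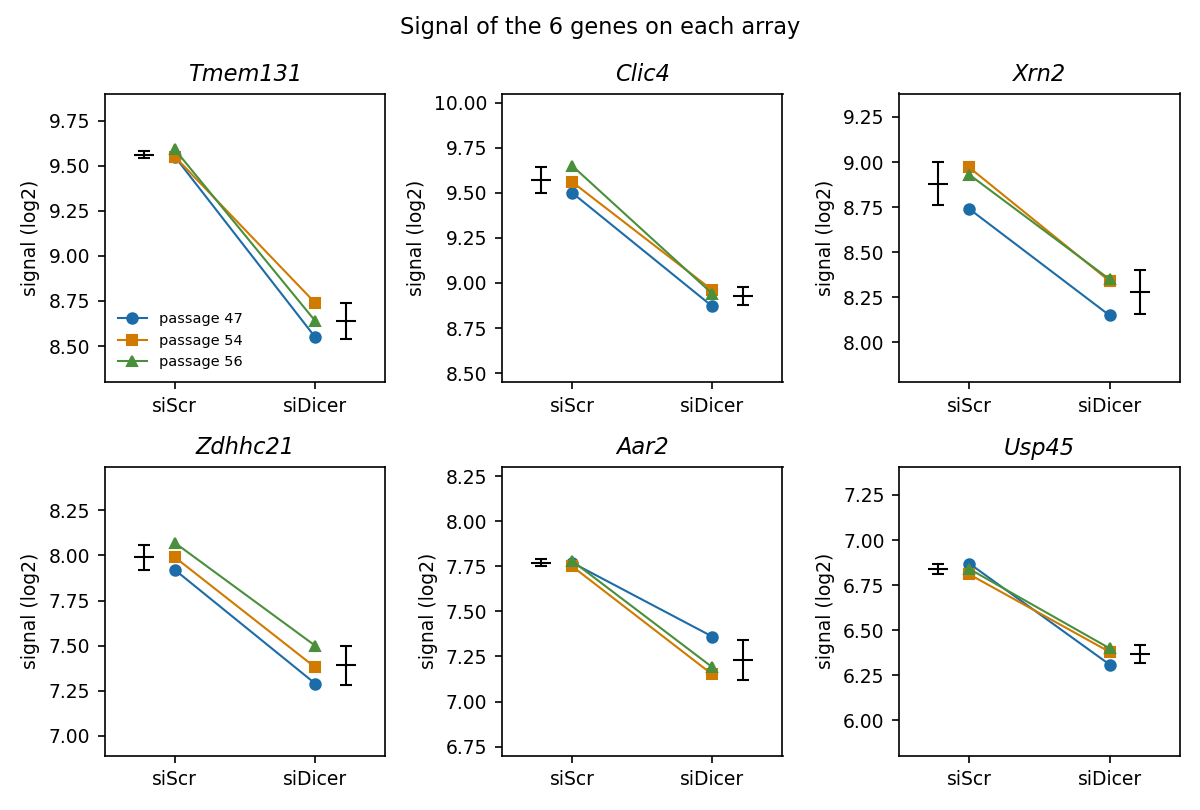
Log2 signal (y axis, the same span of 1.6 units in each panel) of the 6 genes in siScr and siDicer cells; each line joins the arrays of the same passage, and the black marks beside the points are group means with SD (n = 3 each). In every panel all 3 siDicer arrays lie below all 3 siScr arrays, by 0.39 (Xrn2) to 0.80 (Tmem131) at the nearest arrays.

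All 18 within-passage differences were below 0, from -1.00 to -0.42. Their median over the 6 genes was -0.62, -0.61 and -0.58 at passages 47, 54 and 56, while the median of all probe sets was -0.01, -0.00 and -0.02. The lowest 1% of all probe sets lay below -0.41, -0.41 and -0.43 in the same pairs, and each of the 6 genes was among the lowest 163 probe sets at every passage. The groups of all 6 genes did not overlap, and in 8.29% of all probe sets every siDicer array likewise lay below every siScr array. All of these values come from the contrast by which the genes were chosen, so they describe the genes and test nothing.

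**Figure D2:**
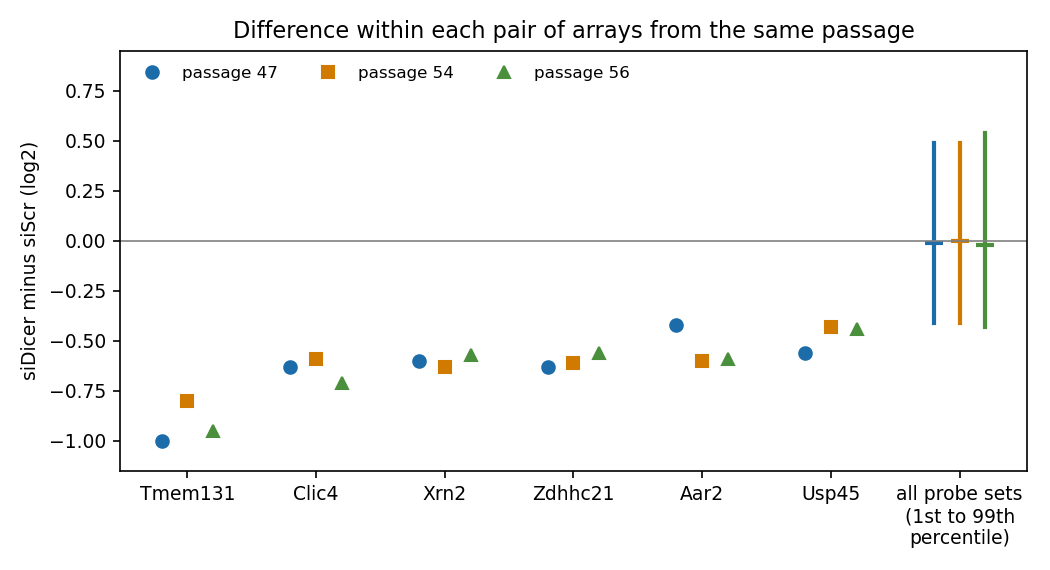
Difference siDicer minus siScr (log2, y axis) within each pair of arrays of the same passage for the 6 genes, with vertical bars on the right from the 1st to the 99th percentile of all 16383 probe sets and a tick at their median. The points of the 6 genes run from -1.00 to -0.42, each below the bar of its own passage, which starts at -0.41, -0.41 or -0.43.

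In the fit across all probe sets (limma, adjusted p under 0.05), all 6 genes passed as lower, as the choice required, and 0.0671% of all probe sets did so (11 of 16383). Of these 11, the other 5 were the TGF-beta receptor gene Tgfbr1, 1 predicted gene model, 2 probe sets with several symbols and 1 with none. With replicate number as a block, 0.238% of all probe sets passed as lower, the 6 genes among them. Xrn2 lay nearest to the threshold inside it, at an adjusted p of 0.0440 in limma. Just outside it lay the lipid kinase gene Pip4k2a (log2 change -0.51, adjusted p = 0.0570), Cnot9, a subunit of the CCR4-NOT deadenylase complex (-0.45, adjusted p = 0.0584), and the zinc transporter gene Slc39a10 (-0.41, adjusted p = 0.0586). With the block all 3 passed (adjusted p = 0.0337, 0.0312 and 0.0435 in the same order). Falls past the threshold and just outside it overlapped in size, since that of Pip4k2a was larger than that of Usp45.

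Profiles over the 6 arrays were compared after centring each gene on its mean, by the root mean square difference among 3565 named genes above the background gauge given below. This again uses the contrast, so likeness in part restates the choice. Genes were not scaled, so a difference in the size of the fall by itself sets profiles apart. The profile nearest to that of Xrn2 and to that of Zdhhc21 was Tgfbr1, at 0.03 and 0.04 log2 units. Zdhhc21 was also the nearest to Clic4, at 0.05. Tmem131 had no profile as near: its nearest were Clic4 at 0.14 and Tgfbr1 at 0.16. Aar2 was nearest to Trp53inp2, an autophagy regulator, at 0.09 and to Mpped2 at 0.10. Both of these passed as lower only with the block (limma, adjusted p = 0.0638 without and 0.0433 with it for Trp53inp2, 0.0709 and 0.0381 for Mpped2). Usp45 was nearest to R3hdm1 and Slc39a10, at 0.06 each. Clic4, Xrn2 and Zdhhc21, whose falls were of similar size, thus lay within 0.07 of each other. Tmem131 stood 0.14 to 0.23 from the other 5, which in large part restates its larger fall and does not show a pattern of its own.

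Passage was not named in the choice of the genes, but the choice was not free of it. A strong passage effect widens the spread within each group, and genes with such spread were less likely to be chosen. The passage results of the 6 genes are therefore a description and no independent test. Each passage has 1 siScr and 1 siDicer array, so passage is balanced between the groups. The term was tested over all probe sets in a fit with siRNA group and passage. None of the 6 genes passed (limma F test, adjusted p from 0.294 for Xrn2 to 0.957 for Usp45), and 0.586% of all probe sets did. At an unadjusted p under 0.05 there was 1 of 6, Xrn2, against 14.5% of all probe sets. Its mean signal over both arrays was 8.44 at passage 47, 8.65 at passage 54 and 8.64 at passage 56. Zdhhc21 had means of 7.61, 7.69 and 7.78 in the same order. Usp45 had means of 6.59, 6.60 and 6.62, the narrowest spread of the 6. Passage, replicate number and the day of culture cannot be told apart, and 2 arrays per passage give this test little precision.

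Genes of related function gave a test of whether partners and paralogs of the 6 moved as well. They were taken from lists drawn up with earlier results of these data known. Nearly all named probe sets lie on chromosomes 1 to 4, so each list was measured only in part. In this fit 0.214% of all probe sets passed in either direction, 10.2% had an unadjusted p under 0.05, and the median log2 change of all was -0.01. With the block 0.995% passed, and of the measured genes in the lists around the 6 only P3h1 and Lypla2 did.

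Around Tmem131, 11 of 50 listed genes of collagen folding and export were measured, and none passed in limma (3 at an unadjusted p under 0.05). Their median change was 0.00. Tmem131l, the paralog of Tmem131, had a change of 0.14 (adjusted p = 0.563). The highest was P3h1, a prolyl hydroxylase of collagen, with siScr signals of 7.22, 7.16 and 7.10 and siDicer signals of 7.75, 7.53 and 7.64. Its groups did not overlap. It was higher by 0.48 (limma, adjusted p = 0.0584), and with the block it passed (adjusted p = 0.0371). Sec24d, a cargo adaptor of the COPII coat that carries collagen from the endoplasmic reticulum, had a change of 0.34 (adjusted p = 0.341). Its differences by passage were 0.33, 0.35 and 0.35, and its adjusted p in limma with the block was 0.0503. Sec23b of the same coat had one of -0.11 and the TRAPP subunit Trappc3 one of -0.07, neither past the threshold.

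Of the CLIC family and its partners only Clic3, with a change of -0.01 (adjusted p = 0.977), and the phosphatase gene Ptpn1, with 0.12 (adjusted p = 0.692), were measured of 13 listed genes. Neither passed in limma.

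Around Xrn2, 14 of 51 genes of transcription termination and RNA decay were measured, and none passed in limma (1 at an unadjusted p under 0.05). The median change was -0.02. The lowest was Rprd2, which binds the tail of RNA polymerase II, with a change of -0.24 (adjusted p = 0.258). The cleavage factor genes Cstf1, Cstf3 and Clp1 had changes of -0.01, -0.03 and -0.03. The exosome genes Exosc2, Exosc3 and Exosc10 had changes of 0.08, 0.10 and -0.05.

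Around Zdhhc21, 6 of 34 genes for enzymes that add or remove palmitate were measured, and 1 rose. This was Lypla2, an acyl-protein thioesterase that removes palmitate, with siScr signals of 8.15, 8.20 and 8.07 and siDicer signals of 8.65, 8.62 and 8.57. Every siDicer signal lay above every siScr signal, the nearest being 8.57 and 8.20, in the opposite direction to Zdhhc21. Lypla2 was higher by 0.47 ± 0.06 (SE; limma, adjusted p = 0.0321). It did not pass after quantile normalization (adjusted p = 0.0663) or cyclic loess (adjusted p = 0.0557), nor without any single array (adjusted p from 0.0699 without siScr replicate 2 to 0.179 without siScr replicate 3). Its paralog Lypla1 had a change of -0.13 (adjusted p = 0.556), and the transferase genes Zdhhc5, Zdhhc12 and Zdhhc18 had changes of -0.10, 0.19 and 0.13, none past the threshold.

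Around Aar2, 11 of 40 genes listed around the U5 and U4/U6.U5 ribonucleoproteins were measured, and none passed in limma (2 at an unadjusted p under 0.05). Not all encode proteins of these particles: Snrpb2 and Ncdn, with changes of -0.06 and -0.01, do not. The median was -0.06, and 8 of the 11 lay below 0. The U5 helicase gene Snrnp200 had a change of -0.17 (adjusted p = 0.493), Snrnp40 one of 0.02 and Prpf6 one of 0.11. Prpf3, a protein of the U4/U6 particle, had a change of -0.22 (adjusted p = 0.436) and the splicing factor gene Prpf38b one of 0.20 (adjusted p = 0.374).

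Around Usp45, 12 of 65 listed genes were measured, and none passed in limma (1 at an unadjusted p under 0.05). The median was 0.01 and 11 of the 12 are proteases, Usp6nl being a regulator of Rab proteins. The lowest was Usp1, a protease that acts on ubiquitinated DNA repair and replication proteins, with a change of -0.27 (adjusted p = 0.401). Changes of the other 11 lay between -0.09 and 0.07.

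**Figure D3:**
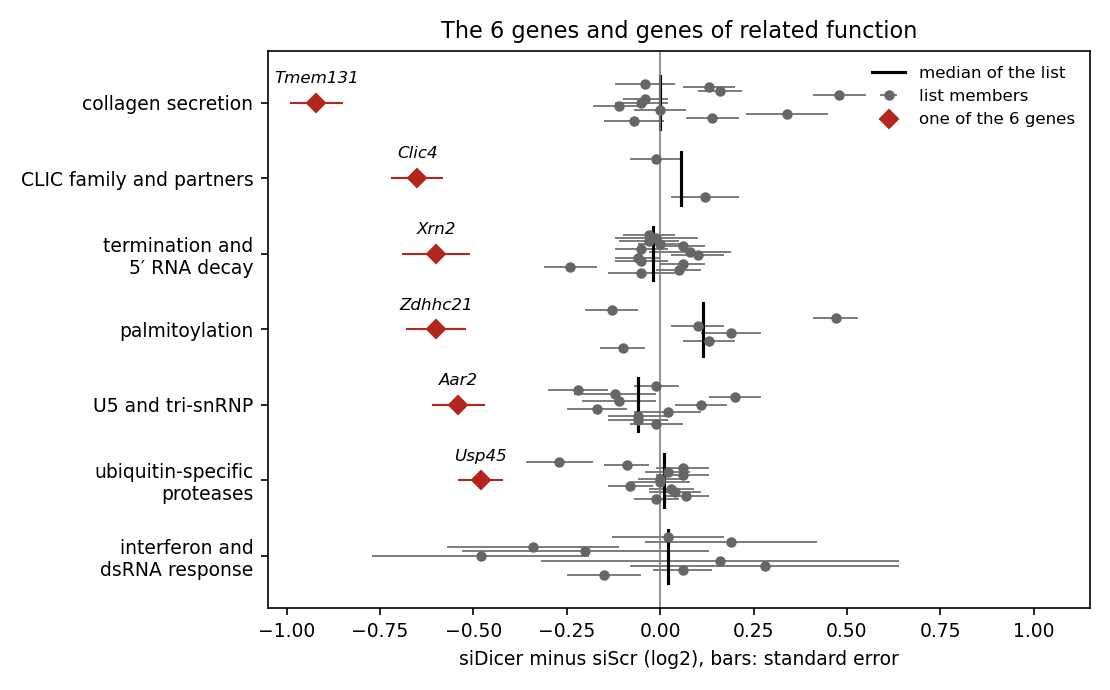
Log2 change siDicer minus siScr (x axis, with standard error) of each of the 6 genes (diamonds), of measured genes of related function (dots) and of interferon response genes, with a vertical line at each list's median. List medians lie between -0.06 and 0.12. The 6 genes, chosen for their falls in this contrast, lie between -0.92 and -0.48.

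Neighbouring genes were taken in the order of RefSeq's gene table (GRCm38.p6), the nearest 2 on each side of each of the 6 genes that were measured by a row of that gene alone. Genes without such a row and predicted gene models were passed over, so a neighbour need not adjoin its gene. For example, 12 genes lie between Ralgapa2 and Xrn2, and 6 between Nfib and Zdhhc21. Of these 24 neighbours none passed in limma with or without the block (smallest adjusted p = 0.143 without it), and 4 had an unadjusted p under 0.05 without it: Ralgapa2, Nfib, Tstd3 and Ccnc. Of all probe sets, 10.2% had such a p. The neighbours' median change was -0.01, with 11 above and 13 below 0. Next to Tmem131, the kinase gene Zap70 had a change of -0.10 and Cox5b one of 0.09, both on one side. On the other side both neighbours are pseudogenes, Rpl12-ps1 with a change of 0.14 and n-R5s210 with 0.06. Whether their probes also read related transcripts from elsewhere was not tested. Next to Clic4, Runx3 and Srrm1 had changes of -0.05 and -0.06. Next to Xrn2, Nkx2-4 had a change of -0.13 and Ralgapa2 one of 0.26. Next to Zdhhc21, Cer1, whose signal of 3.28 was below the background gauge, had a change of -0.15 and Nfib one of 0.32. Next to Aar2, Epb41l1 and Dlgap4 had changes of 0.13 and 0.07. Of the 4 neighbours with an unadjusted p under 0.05, 2 lay on one side of Usp45, and neither passed in limma. These were Ccnc, cyclin C, with siScr signals of 6.94, 6.99 and 7.02 and siDicer signals of 6.58, 6.69 and 6.74, and Tstd3, with 6.38, 6.15 and 6.21 against 6.16, 6.00 and 5.96. The groups of Ccnc did not overlap (log2 change -0.31, limma adjusted p = 0.143; 0.0660 with the block), and those of Tstd3 did (-0.21, adjusted p = 0.470).

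**Figure D4:**
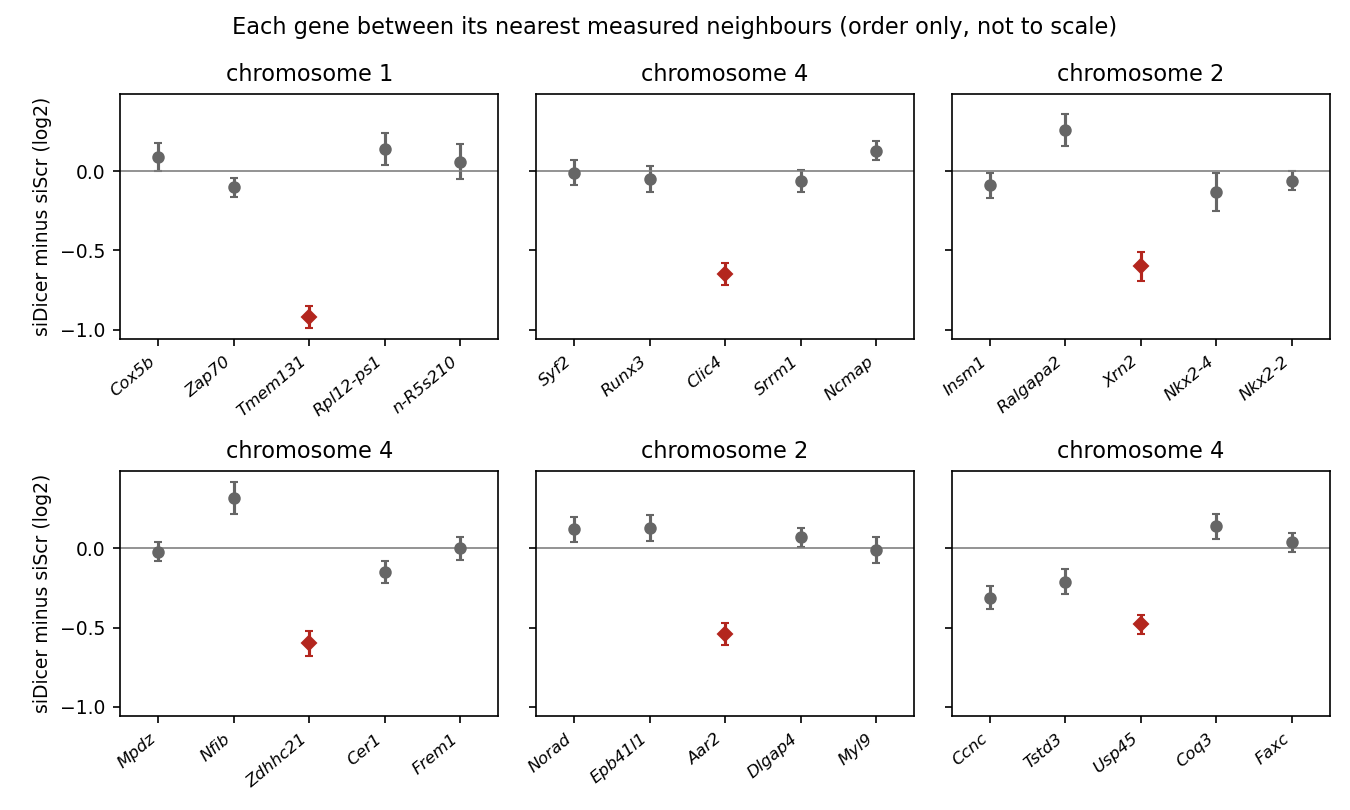
Log2 change siDicer minus siScr (y axis, with standard error) of each of the 6 genes (diamonds) and its nearest measured neighbours (dots) in chromosomal order, not to scale. The 24 neighbours lie between -0.31 (Ccnc) and 0.32 (Nfib). Each of the 6 genes lies below all of its own neighbours, which their choice as falls in this contrast made likely in advance.

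Other features of the samples were set beside these falls. Receptor genes of smell and of the vomeronasal organ, 426 in all, served to gauge background. Their 95th percentile was 4.22, and all 6 genes lay above it. Melanocyte markers were present: Tyrp1, a melanin-synthesis enzyme, had a mean signal of 12.85, Slc24a5 of 10.66 and Pax3 of 10.57, and none of these 3 passed in limma. Of 7 measured melanocyte markers none passed without the block (2 at an unadjusted p under 0.05) and 2 did with it, both higher: Mreg (change 0.62, adjusted p = 0.0435 with the block) and Lef1 (0.52, adjusted p = 0.0337 with the block). All 6 measured immune cell markers had changes below 0, with a median of -0.18, and none passed in limma. At an unadjusted p under 0.05 there were 3 of 6, against 10.2% of all probe sets. The mean signal of the 6 ran from 4.77 to 4.80 on the siScr arrays and from 4.58 to 4.69 on the siDicer arrays. Of the 6, 5 lay above the gauge: C1qa at 5.38, Laptm5 at 5.21, Fcer1g at 5.09, C1qb at 4.98 and C1qc at 4.74. Ptprc, which defines leukocytes, was below it at 2.84. Fibroblast, keratinocyte and endothelial markers had medians of 0.01 over 5 genes, -0.07 over 5 and -0.05 over 4, with none past the threshold in limma, or below 0.05 before adjustment. The fibroblast median ran from -0.07 without siDicer replicate 2 to 0.25 without siScr replicate 2. The part of these markers in the falls was not tested. In this bulk RNA fewer cells of a type and less RNA per cell cannot be told apart. Genes of the interferon and double-stranded RNA response, which transfected RNA can induce, had a median of 0.02 over 9 measured genes. None passed in limma with or without the block (0 had an unadjusted p below 0.05 without it). The RNA sensors Ifih1 and Ddx58 had changes of 0.28 and 0.19 (limma with the block, adjusted p = 0.196 and 0.237). The guanylate-binding protein genes Gbp7 and Gbp2 had changes of -0.48 and -0.34. Both were lower at every passage, by -0.45, -0.70 and -0.28 for Gbp7 and -0.34, -0.47 and -0.22 for Gbp2. Both also differed between passages (limma F test, adjusted p = 0.0365 and 0.0383). Their adjusted p in limma was 0.634 and 0.653 without the block, and 0.0755 and 0.0886 with it. The interferon median ran from -0.22 to 0.18 without the same arrays. These fits were without the block, and leaving out 1 array leaves passage unbalanced between the groups. Shifts of both medians can thus hold differences between passages, and these fits settle the sign of neither.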

How the data were processed

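Total RNA of 6 cultures was hybridised to Clariom D arrays after WT PLUS labelling, per the labels' protocols. The values used are the log2 signals per probe set that the authors deposited. Affymetrix Expression Console is the tool that the submitters' processing notes name, while neither its version, the background correction nor the normalization is given in the sources used here. Array medians lay between 4.58 and 4.64. The table held 16383 probe sets, of which 7530 had 1 gene symbol in the platform annotation, 455 several and 8398 none. RNA integrity numbers were 9.7 to 10. Precision is limited by the number of arrays.

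The comparison used lmFit and eBayes of limma 3.58.1 (R 4.3.3) on all probe sets, with Benjamini-Hochberg adjustment. P-values set a difference against the spread between these cultures, which without the block includes differences between passages. The members, gene lists, motifs and the rule for named genes were chosen with earlier results of these data known. The rule named the 6 genes, the 2 smallest p in each list, 2 neighbours a side, the 2 nearest profiles and the 3 falls just outside the threshold; other list genes were picked after their values were seen. Same-numbered arrays share a passage, and their deviations from the group means correlated with r of 0.44, 0.41 and 0.24, so the numbers pair the samples. The main fit did not use this pairing. P-values and standard errors come from it unless the block, the paired fit (which is the fit with the block) or the passage term is named. Alternatives were the block, 3 other scalings, a filter on level, array weights, a variance trend, removal of identical rows and leaving out each array.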

Additional observations from a re-analysis of the deposited data

How the results depend on the processing

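The 6 log2 changes kept their sign in every alternative, and outside leave-one-array-out fits each moved by at most 0.04. All 6 had an adjusted p under 0.05 in limma with the block (0.0209 to 0.0325). Aar2 did not after quantile normalization (0.0503), nor Xrn2 after median centring (0.0674). None of the 6 did without siDicer replicate 1 (smallest 0.0520), without siDicer replicate 3 (0.0584) or without siScr replicate 3 (0.114). Without siDicer replicate 2 only Tmem131 did, and without siScr replicate 1 or 2 only Tmem131 and Clic4. The fits that leave out an array were without the block, and each leaves passage unbalanced between the groups. Leaving out an array moved Tmem131 between -0.97 and -0.87, Clic4 between -0.68 and -0.61, Xrn2 between -0.67 and -0.54, Zdhhc21 between -0.66 and -0.55, Aar2 between -0.60 and -0.50 and Usp45 between -0.49 and -0.45. Over all probe sets 35 passed, against 163 with the replicate block, 59 among probe sets above the median level, 66 with array weights and 0 to 20 without 1 array (1208 to 1815 at an unadjusted p under 0.05). The passage term gave 96, against 63 after quantile normalization, 172 above the median level, 1 for passage 47 against the later passages together and 22 to 134 without 1 array. The causes were not tested. The alternative of another probe set per gene was not run, since each of the 6 has 1. The block changed no other call among the 6 genes and their neighbours; the calls it changed among other named genes, P3h1, Mreg, Lef1, Pip4k2a, Cnot9, Slc39a10, Trp53inp2 and Mpped2, are given above.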
